A study of Mus musculus with 12 samples.

Results

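The mouse genes for Fc gamma receptors are Fcgr1 (ENSMUSG00000015947), Fcgr2b (ENSMUSG00000026656), Fcgr3 (ENSMUSG00000059498) and Fcgr4 (ENSMUSG00000059089). They were taken by symbol from the deposited gene counts, as 4 of 57010 genes, and all 4 were among the 15425 genes with enough counts to be tested. Their mRNA was followed through 12 libraries of cultured preosteoclasts, the mononuclear precursors of bone-resorbing osteoclasts, from LSD1WT and LSD1cKO mice.

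Fc gamma receptors are cell-surface proteins of myeloid cells that bind the Fc part of IgG, so that antibody-coated particles and immune complexes are taken up and signal to the cell. Fcgr1 (the high-affinity receptor), Fcgr3 and Fcgr4 are activating receptors that signal through the ITAM of the shared FcR gamma chain, encoded by Fcer1g, and through Src family kinases and Syk. Fcgr2b is the inhibitory receptor, whose ITIM recruits the lipid phosphatase SHIP1 (Inpp5d). In osteoclast precursors the FcR gamma chain also serves as an adaptor for costimulatory receptors that act beside RANK.

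LSD1 is the histone demethylase encoded by Kdm1a. In LSD1cKO mice a floxed Lsd1 allele was deleted by LysM-Cre, a driver that is active in the myeloid lineage and not only in osteoclast precursors; whether LSD1WT mice carried the floxed allele or Cre was not given in the sources used here. All mice were female, and the labels give an age of 2 months, whereas the sequencing methods give an older age. The 3 cultures were mandible and femur marrow of mice that had carried a molar ligature for 7 days, and femur marrow of mice without one, and all were grown for 2 days with RANKL and M-CSF before polyA RNA was sequenced. Each of the 6 conditions (genotype by culture) had 2 libraries. The libraries came from 9 mice, 5 LSD1WT and 4 LSD1cKO, and both sites were sequenced from 1 LSD1WT mouse and 2 LSD1cKO mice.

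Total counts ran from 21375805 to 32526751 per library, so that 3 counts, the limit that a count of 0 allows, were 0.0927 to 0.154 CPM (each count divided by the library total after edgeR's TMM scaling), a limit that covers counting error only. Kdm1a was at 61.2 to 71.3 CPM in the 6 LSD1WT libraries and at 15.6 to 24.3 CPM in the 6 LSD1cKO libraries. In femur LSD1WT replicate 2, of both the ligated and the unligated culture, the 12 osteoclast markers summed to 261.3 and 388.9 CPM, against 41620 and 38120 CPM in replicate 1, and the 12 macrophage markers summed to 15160 and 11540 CPM, against 3651 and 3599 CPM. These 2 libraries, which come from different mice, go against the label of preosteoclasts, and the tests below are also given without them where this changes the call, the direction or the size. The 2 mandible LSD1WT libraries (replicates 1 and 3) differed from each other by a biological coefficient of variation of 0.0246, against 0.0978 to 0.709 in the other 5 conditions, and the title and the library name of replicate 3 disagree on whether it is mandible or femur. It was taken as mandible, by its title. The labels do not say whether libraries of 1 condition came from separate cultures in every case, so p values measure the spread between these libraries. The genotype fits and the permutation test below treat libraries as independent, although some mandible and femur libraries come from the same mouse.

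The 4 genes are related in sequence, and this bears on how reads could be assigned to them. Coding sequences of the longest coding transcripts in GENCODE vM21 were 85.9% identical between Fcgr2b and Fcgr3 over 781 aligned bases, and between 60.5% and 66.2% identical in the other 5 pairs. Fcgr2b and Fcgr3 shared a coding run of 129 bases without a mismatch, at coding bases 278 to 406 of Fcgr2b and 263 to 391 of Fcgr3. It is shown because a read that lies inside it cannot be told apart between the inhibitory and the activating receptor.
Fcgr2b and Fcgr3 shared coding run: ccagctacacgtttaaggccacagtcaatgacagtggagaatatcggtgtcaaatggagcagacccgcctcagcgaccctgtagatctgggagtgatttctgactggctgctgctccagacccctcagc

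Of all windows of 100 bases along the Fcgr3 transcript, 3.53% were also in Fcgr2b, and of windows of 50 and 150 bases 12.8% and none were. Of Fcgr2b windows of 50, 100 and 150 bases, 12.5%, 6.79% and 3.15% were in other genes, Fcgr3 among them up to 100 bases, while Fcgr1 and Fcgr4 shared no window of 50, 100 or 150 bases with any other gene. How the counting treated reads that match several genes, and whether it used strand, was not given in the sources used here, so the Fcgr2b and Fcgr3 counts are uncertain to that extent. Exons of Fcgr2b also overlap the antisense gene Gm38204 by 155 bases.

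The bases just before the transcription start are shown for the 4 receptors because their mRNA rose and fell together across the libraries, as described below. The sequences are those of RefSeq on build GRCm38.p6, 150 bases to the base before the start, 5′ to 3′ on the strand of the gene. Capitals mark GAGGAA, the core that PU.1 binds, TTCNNNGAA, the gamma-activated site, and GAAA followed by any 2 bases and GAAA, the core of the interferon-stimulated response element, each on either strand.
Fcgr1 (chr3:96293970-96294119, minus strand): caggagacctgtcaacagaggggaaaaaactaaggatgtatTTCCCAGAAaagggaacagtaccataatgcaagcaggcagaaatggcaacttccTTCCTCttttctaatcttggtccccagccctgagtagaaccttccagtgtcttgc
Fcgr2b (chr1:170976072-170976221, minus strand): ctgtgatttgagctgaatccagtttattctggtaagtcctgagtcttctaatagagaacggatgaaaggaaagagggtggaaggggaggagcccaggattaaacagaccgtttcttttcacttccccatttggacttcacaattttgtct
Fcgr3 (chr1:171059404-171059553, minus strand): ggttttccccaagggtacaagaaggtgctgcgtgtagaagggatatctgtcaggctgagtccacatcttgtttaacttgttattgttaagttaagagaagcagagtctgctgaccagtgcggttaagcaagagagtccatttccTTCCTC
Fcgr4 (chr1:171018776-171018925, plus strand): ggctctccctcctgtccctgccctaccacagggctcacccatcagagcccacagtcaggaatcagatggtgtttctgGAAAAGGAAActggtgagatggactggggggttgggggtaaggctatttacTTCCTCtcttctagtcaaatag

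In the 250 bases before the start, GAGGAA was found once each in Fcgr1, Fcgr3 and Fcgr4 (written as TTCCTC on these strands) and not in Fcgr2b, and it was present in 23.3% of 32851 promoter windows of that length. GGAAGT, a general ETS core, was found in Fcgr1, Fcgr2b and Fcgr4 and in 19.7% of all windows, and in Fcgr4 it overlaps the GAGGAA match. TTCNNNGAA was in Fcgr1 only among the 4 receptors, at base -109, and in 7.02% of all windows. The interferon-stimulated response element core was in Fcgr4 only, at base -73, and in 2.98% of all windows. Fcgr3 has 2 promoter windows in this reference, and only the window shown was searched, so its matches cover 1 annotated start. A match describes these letters and does not show that a factor binds there.

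Per length, Fcgr3 was the most abundant of the 4 receptor mRNAs in all 12 libraries. Divided by the union of exons of each gene, it made up 64.9% to 88.9% of the summed CPM per kilobase in LSD1WT and 49.9% to 60.6% in LSD1cKO, and the 2 ranges did not overlap. Fcgr4 made up 3.33% to 17.2% of it in LSD1WT and 21.5% to 25.2% in LSD1cKO, again without overlap. Without femur LSD1WT replicate 2 the LSD1WT ranges were 64.9% to 76.3% for Fcgr3 and 12.3% to 17.2% for Fcgr4. The Fcgr2b share was 13.2% and 15.9% in mandible LSD1WT, 21.2% and 23.1% in mandible LSD1cKO, and 3.26% to 8.88% in the 8 femur libraries. The Fcgr1 share was 3.28% to 12.2%. These shares are relative to each other within a library, are a description with no test, and depend on the length used, which for Fcgr2b is 5790 bases as the union of exons and 3544 bases as the longest coding transcript.

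**Figure D1:**
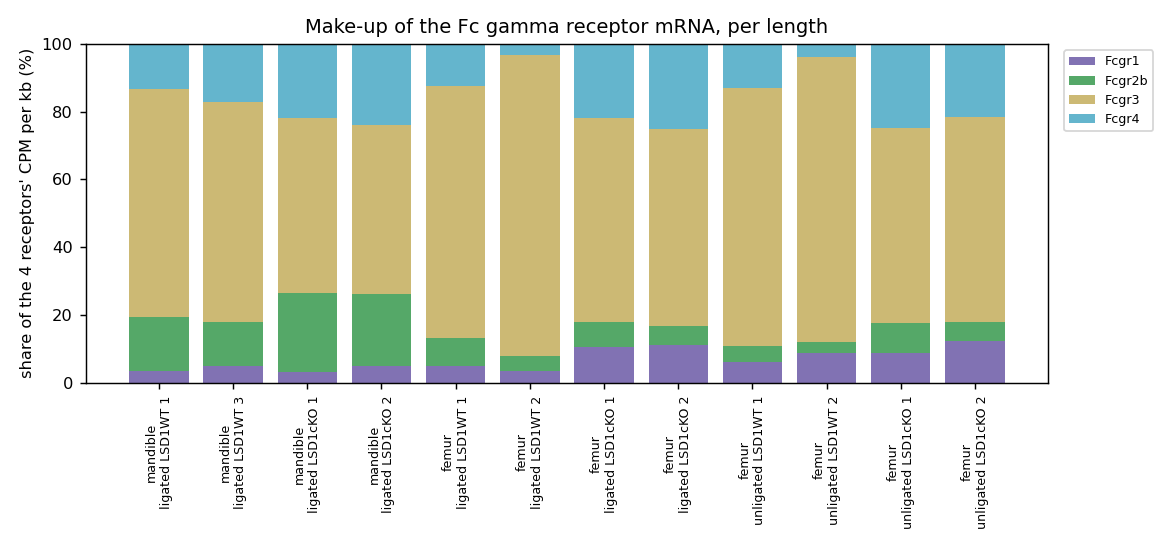
Share of each receptor in the summed CPM per kilobase of the 4 Fc gamma receptor mRNAs (%, stacked bars) in each of the 12 libraries, with lengths from the union of exons. Fcgr3 is the tallest segment in every bar and is shorter in every LSD1cKO bar (at most 60.6%) than in every LSD1WT bar (at least 64.9%).

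The genotype comparison asks whether the loss of LSD1 changed the receptors' mRNA. In the mandible the LSD1cKO libraries exceeded the LSD1WT libraries for all 4 receptors, as for 34.1% of genes tested. In the femur this held for Fcgr4 alone among the 4, against 14.8% of genes in the ligated and 9.82% in the unligated femur. Femur LSD1WT replicate 2 was above replicate 1 for each receptor, by 2.35-fold (Fcgr4, unligated) to 47.2-fold (Fcgr3, ligated). With all 12 libraries no receptor passed the test, and without the 2 femur LSD1WT replicate 2 libraries all 4 rose in LSD1cKO.

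Fcgr4, the activating receptor for IgG2 subclasses, had 1.67 and 2.42 CPM in the mandible of LSD1WT (41 and 66 counts), against 9.86 and 12.8 CPM in LSD1cKO (287 and 415 counts). Ligated femur cultures gave 5.92 and 63.1 CPM for LSD1WT, with 72.6 and 87.6 CPM for LSD1cKO. Cultures of unligated femur gave 12.5 and 29.4 CPM for LSD1WT, with 44.8 and 52.2 CPM for LSD1cKO. The genotypes did not overlap in any culture, the nearest pair being 63.1 and 72.6 CPM in the ligated femur. LSD1cKO was higher without overlap for 34.1% of genes in mandible cultures. Those shares were 14.8% for ligated and 9.82% for unligated femur cultures. With all 12 libraries no share of genes was computed for the 3 cultures jointly, so how unusual the joint pattern is cannot be said. Over the 3 cultures edgeR called 3.53% of genes and DESeq2 8.09%. The Fcgr4 log2 fold change was 1.61 (SE 0.49, 95% interval 0.52 to 2.69, 6 libraries per genotype). Its unadjusted p was 0.0079 and its adjusted p 0.12 in edgeR's quasi-likelihood test, so Fcgr4 did not pass the threshold of 0.05. It passed in DESeq2, with an adjusted p of 0.0113, and in edgeR without ligated femur LSD1WT replicate 2, with a log2 fold change of 2.24 and an adjusted p of 0.0161, where 4.05% of genes were called.

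Fcgr2b, the inhibitory receptor, measured 9.18 and 8.59 CPM in mandible cultures of LSD1WT, whereas those of LSD1cKO measured 48.1 and 52.1 CPM. For the ligated femur the LSD1WT values were 18.2 and 375 CPM, and the LSD1cKO values 114.9 and 89.6 CPM. For the unligated femur they were 20.8 and 116 CPM, against 74.3 and 63.3 CPM. The genotypes were apart in the mandible, whereas in each femur culture both LSD1cKO values fell between the 2 LSD1WT values. The log2 fold change over the 3 cultures was 0.45 (SE 0.80, edgeR adjusted p 0.85), with a 95% interval from -1.31 to 2.21.

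Fcgr1, the high-affinity receptor, had few counts in the mandible, 22 and 38 for LSD1WT (0.898 and 1.39 CPM) and 89 and 173 for LSD1cKO (3.06 and 5.35 CPM). Ligated femur LSD1WT libraries held 4.95 and 136 CPM, and those of LSD1cKO 71.2 and 78.9 CPM. Unligated femur LSD1WT libraries held 12.2 and 139.6 CPM, and those of LSD1cKO 33.2 and 61.1 CPM. The order was that of Fcgr2b, with LSD1cKO above in the mandible and between the LSD1WT libraries in the femur. Its log2 fold change over the 3 cultures was 0.34 (SE 0.79, edgeR adjusted p 0.892).

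Fcgr3, the activating receptor that macrophages carry at high levels, stood at 11.6 and 12.7 CPM for LSD1WT in the mandible, below the 32.3 and 36.8 CPM of LSD1cKO. With a ligature, femur LSD1WT libraries stood at 49.3 and 2329 CPM, on either side of the 276 and 279 CPM of LSD1cKO. Without a ligature the LSD1WT libraries were at 102 and 899.7 CPM, again on either side of LSD1cKO (144 and 203 CPM). Its gap between the ligated femur LSD1WT replicates was the widest of the 4 receptors, and it alone had a negative fitted difference over the 3 cultures, at -0.81 on the log2 scale (SE 0.96, edgeR adjusted p 0.751). In bulk RNA, fewer cells of a type and less RNA per cell cannot be told apart.

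**Figure D2:**
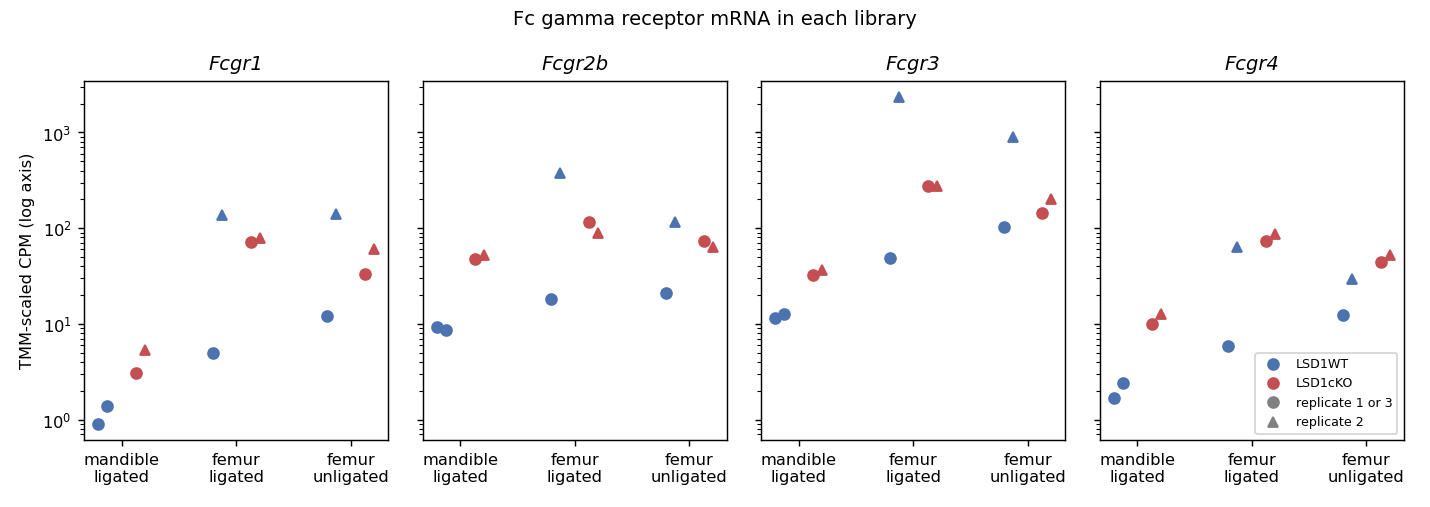
TMM-scaled CPM (log axis) of each receptor in the 12 libraries, by culture; blue is LSD1WT, red is LSD1cKO, circles are replicate 1 (or 3 in mandible LSD1WT) and triangles are replicate 2. In both femur cultures the LSD1WT triangle lies far above the LSD1WT circle, and for Fcgr4 alone both red points lie above it.

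Taken over the 3 cultures, 0 of the 4 receptors had an adjusted p under 0.05 in edgeR's quasi-likelihood test, where 3.53% of the 15425 genes did, and 1 of 4 (Fcgr4) had an unadjusted p under 0.05, against 16.1% of genes. DESeq2 called 1 of 4, where it called 8.09% of genes. In the mandible 0 of 4 were called by edgeR and by DESeq2, where edgeR called 0% of genes and DESeq2 0.947%. At an unadjusted p under 0.05 edgeR had 1 of 4 (Fcgr4), against 4.82% of genes. DESeq2 had 2 of 4 at that level (Fcgr2b and Fcgr4), where 723 of the 15425 genes were higher and 170 lower. The mandible log2 fold changes were 1.87 for Fcgr1, 2.50 for Fcgr2b, 1.51 for Fcgr3 and 2.47 for Fcgr4 (SE 1.42, 1.17, 1.37 and 0.91). Libraries of the genotypes did not overlap there for any of the 4, LSD1cKO being higher, which held for 34.1% of genes tested. When the mandible libraries were fitted alone, 4 of 4 receptors rose with adjusted p values from 3.9e-06 to 0.00312 (edgeR), but 37.7% of genes were called in that fit, in which the LSD1WT spread rests on the near-identical pair.

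In the ligated femur 0 of 4 receptors were called by either tool, at adjusted or unadjusted p, where edgeR called 0.00648% of genes (6.88% at an unadjusted p under 0.05) and DESeq2 1.41%. The log2 fold changes were 0.09 for Fcgr1, -0.94 for Fcgr2b, -2.10 for Fcgr3 and 1.22 for Fcgr4. In the unligated femur 0 of 4 were called in the same way, where edgeR called 0% of genes (4.95% unadjusted) and DESeq2 0.791%, with log2 fold changes of -0.69, 0.01, -1.53 and 1.21 in that order. Non-overlapping libraries with LSD1cKO higher were found for 1 of 4 receptors, Fcgr4, in each femur culture, against 14.8% of genes in the ligated and 9.82% in the unligated femur.

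Without the 2 femur LSD1WT replicate 2 libraries, the log2 fold changes over the 3 cultures were 2.53 for Fcgr1 (SE 0.40), 2.30 for Fcgr2b (SE 0.16), 1.56 for Fcgr3 (SE 0.25) and 2.68 for Fcgr4 (SE 0.29). All 4 then passed edgeR's test, with adjusted p values of 0.0014, 1.23e-05, 0.00154 and 0.000141 in that order, as did 24.2% of 16008 genes, 14.4% of them higher in LSD1cKO. Fcgr3 turned from lower to higher. In each of the 3 cultures all 4 receptors were above the remaining LSD1WT libraries in both LSD1cKO libraries, which held in every culture for 15.2% of genes (34.1%, 38.3% and 28.6% in mandible, ligated and unligated femur). Within cultures edgeR then called 4 of 4 in the mandible (5.85% of genes), 4 of 4 in the ligated femur (9.35%) and 2 of 4, Fcgr2b and Fcgr4, in the unligated femur (2.47%). In that fit a single LSD1WT library stands for each femur culture, and its spread is taken from the other conditions. The libraries left out were picked by their marker levels in these data. They were also the higher femur LSD1WT libraries for every receptor, so leaving them out raises each femur difference by construction.

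**Figure D3:**
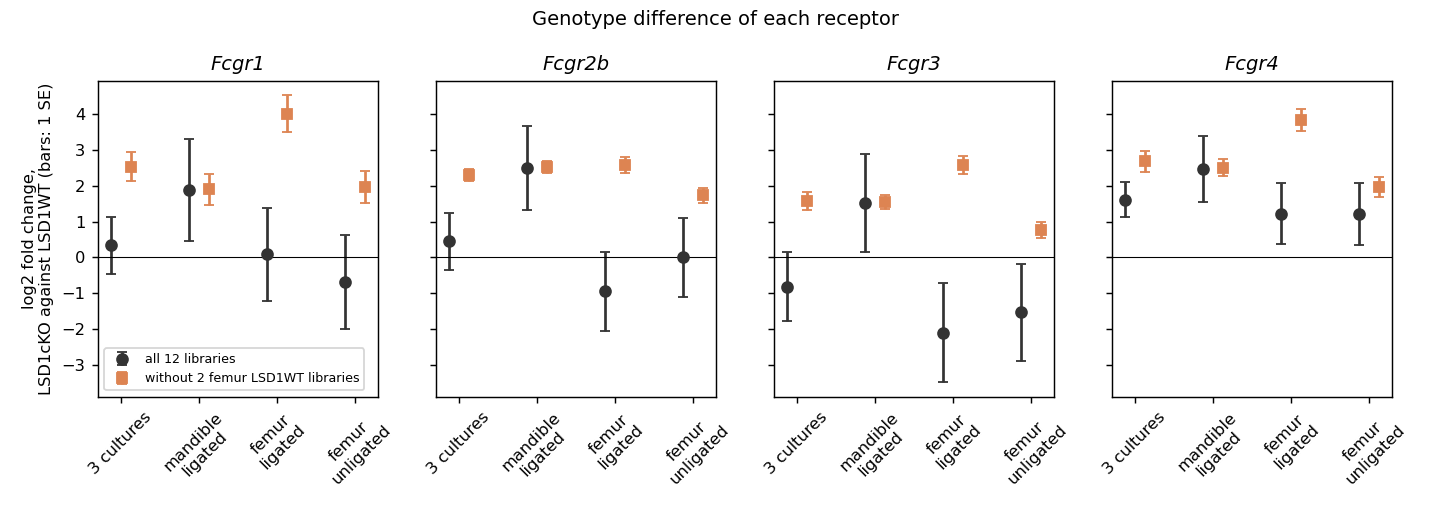
Fitted log2 fold change of each receptor, LSD1cKO against LSD1WT (points; bars are 1 SE), over the 3 cultures and within each, with all 12 libraries (black circles) and without the 2 femur LSD1WT replicate 2 libraries (orange squares). The mandible values hardly move, and the femur values of all 4 receptors lie higher without those libraries.

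Whether genotype acted differently at the 2 sites, and in femur with and without a ligature, was tested with interaction terms. In both, 0 of 4 receptors were called by edgeR, where 0% of genes were, and 0 had an unadjusted p under 0.05, as had 0.966% of genes for the site and 0.344% for the ligature. DESeq2 called 0 of 4 in both, where it called 0.00648% of genes for the site and 0% for the ligature. At an unadjusted p under 0.05 DESeq2 had 2 of 4 for the site, Fcgr2b and Fcgr3, and 0 for the ligature. The share of all genes at that level in DESeq2 was not computed. The site interaction was 1.78 for Fcgr1, 3.44 for Fcgr2b, 3.61 for Fcgr3 and 1.25 for Fcgr4 on the log2 scale. It was -2.11, -0.04, -1.04 and -1.35 without the 2 femur LSD1WT libraries, so its sign turned for each receptor.

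All 4 receptors had their lowest mean level in mandible LSD1WT (1.15, 8.88, 12.1 and 2.05 CPM for Fcgr1, Fcgr2b, Fcgr3 and Fcgr4) and the next lowest in mandible LSD1cKO (4.202, 50.1, 34.6 and 11.3 CPM). These 2 conditions did not overlap for any receptor, and LSD1cKO was likewise the higher without overlap for 34.1% of genes tested. The highest mean was in unligated femur LSD1WT for Fcgr1 (75.9 ± 90.1 CPM, SD, n = 2), in ligated femur LSD1WT for Fcgr2b (197 ± 253 CPM) and Fcgr3 (1189 ± 1612 CPM), and in ligated femur LSD1cKO for Fcgr4 (80.1 ± 10.6 CPM). Among the 4 femur conditions, neighbours in the order of means overlapped for Fcgr1 throughout. For Fcgr2b, Fcgr3 and Fcgr4 the single pair of femur neighbours without overlap was ligated above unligated femur LSD1cKO. Mandible LSD1cKO, the next condition down, overlapped its femur neighbour for Fcgr2b and Fcgr4 and not for Fcgr1 and Fcgr3. For overlaps between femur conditions and between sites no share of all genes was computed.

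Mandible was compared with femur in ligated mice. In LSD1cKO the log2 differences were -4.16 for Fcgr1 (SE 1.49), -1.03 for Fcgr2b (SE 1.11), -3.005 for Fcgr3 (SE 1.44) and -2.82 for Fcgr4 (SE 0.90). In edgeR 0 of 4 were called, where 0% of genes were, with adjusted p values from 0.217 to 0.751 and 2 of 4, Fcgr1 and Fcgr4, at an unadjusted p under 0.05, against 15% of genes. DESeq2 called these 2 receptors, where it called 5.25% of genes. With the mouse as a block, since both LSD1cKO mice gave both sites, 4 of 4 were lower in the mandible with log2 differences of -4.19, -1.02, -3.01 and -2.83, where 36.8% of genes were called. That fit has 1 residual degree of freedom, which comes from the LSD1cKO pair, so its spread is taken largely from all genes. Without the 2 femur LSD1WT replicate 2 libraries 4 of 4 were also called, where 21.7% of genes were, and likewise in a fit of the 4 LSD1cKO libraries alone, where 42.1% were.

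In LSD1WT the site differences were -5.93 for Fcgr1, -4.47 for Fcgr2b, -6.61 for Fcgr3 and -4.07 for Fcgr4. In edgeR 0 of 4 were called, where 0% of genes were, with adjusted p values from 0.167 to 0.179 and 4 of 4 at an unadjusted p under 0.05 (19.8% of genes), and DESeq2 called 4 of 4, where it called 7.71% of genes. Within the 1 LSD1WT mouse that gave both sites, the log2 differences were -2.46, -0.98, -2.08 and -1.82, and since this mouse has 1 library per site, LSD1WT adds no spread of its own to the fit with the mouse as a block and no call is read from it. Without the 2 femur LSD1WT replicate 2 libraries Fcgr3 alone was called, with a log2 difference of -1.99 and an edgeR adjusted p of 0.0194, against 0.9% of genes.

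The ligature comparison asks whether a ligature at the molar went with a change in the femur. In LSD1cKO the log2 differences, ligated against unligated, were 0.67 for Fcgr1, 0.57 for Fcgr2b, 0.68 for Fcgr3 and 0.72 for Fcgr4. They were -0.11, 1.52, 1.25 and 0.72 in LSD1WT. Without the 2 femur LSD1WT replicate 2 libraries, which leaves 1 LSD1WT library per ligature state, the LSD1WT differences were -1.36, -0.25, -1.10 and -1.13, so that the sign turned for Fcgr2b, Fcgr3 and Fcgr4, and again 0 of 4 were called in either genotype. By edgeR and by DESeq2 0 of 4 receptors were called in either genotype and 0 had an unadjusted p under 0.05, where edgeR called 0% of genes in both (0.765% unadjusted in LSD1WT and 0.959% in LSD1cKO) and DESeq2 0.013% in LSD1WT and 0.00648% in LSD1cKO. Intervals were wide, such as a 95% interval of -1.20 to 2.65 for Fcgr4 in LSD1cKO.

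The balance of activating and inhibitory receptor was compared within libraries, as the log2 ratio of each activating receptor to Fcgr2b, by a two-sided exact permutation test of genotype within culture over 216 arrangements, whose smallest possible p is 0.00926. The counts of Fcgr3 over Fcgr2b were 1.27 and 1.47 in mandible LSD1WT and 0.671 and 0.707 in mandible LSD1cKO. They were 2.71 and 6.20 against 2.40 and 3.12 in the ligated femur, and 4.91 and 7.74 against 1.94 and 3.21 in the unligated femur, LSD1WT first. The LSD1cKO ratio was the lower without overlap in the mandible and the unligated femur and overlapped in the ligated femur. The mean log2 difference was -0.96, with an exact permutation p of 0.0185 and an adjusted p of 0.0556 over the 3 ratios, so it did not pass. Without the 2 femur LSD1WT replicate 2 libraries it was -0.65 (exact permutation p 0.0741, adjusted p 0.222).

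The counts of Fcgr4 over Fcgr2b were 0.182 and 0.282 in mandible LSD1WT and 0.205 and 0.246 in mandible LSD1cKO. They were 0.326 and 0.168 against 0.633 and 0.978 in the ligated femur, and 0.600 and 0.253 against 0.603 and 0.824 in the unligated femur, LSD1WT first. The mandible values overlapped and the femur values were higher in LSD1cKO, by little in 1 pair of the unligated femur. The mean log2 difference was 0.85 (exact permutation p 0.0741, adjusted p 0.111), or 0.48 without the 2 femur LSD1WT replicate 2 libraries (adjusted p 0.306). For Fcgr1 over Fcgr2b it was 0.06 (exact permutation p 0.889, adjusted p 0.889), or 0.29 without those libraries (adjusted p 0.611), with ratios of 0.0978 to 1.20 in LSD1WT and 0.0635 to 0.966 in LSD1cKO.

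Among the activating receptors, the ratio of Fcgr4 to Fcgr3 counts set the genotypes apart in every culture. It was 0.144 and 0.191 in mandible LSD1WT and 0.305 and 0.348 in mandible LSD1cKO. It was 0.120 and 0.0271 against 0.263 and 0.314 in the ligated femur, and 0.122 and 0.0327 against 0.310 and 0.257 in the unligated femur, LSD1WT first. The highest LSD1WT ratio was 0.191 and the lowest LSD1cKO ratio 0.257, so the 6 libraries of each genotype did not overlap, with or without the femur LSD1WT replicate 2 libraries. This pair was chosen after its values were seen and was not tested. Of the 15425 genes tested, 0.201% had a ratio to Fcgr3 that was higher in every LSD1cKO than in every LSD1WT library.

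**Figure D4:**
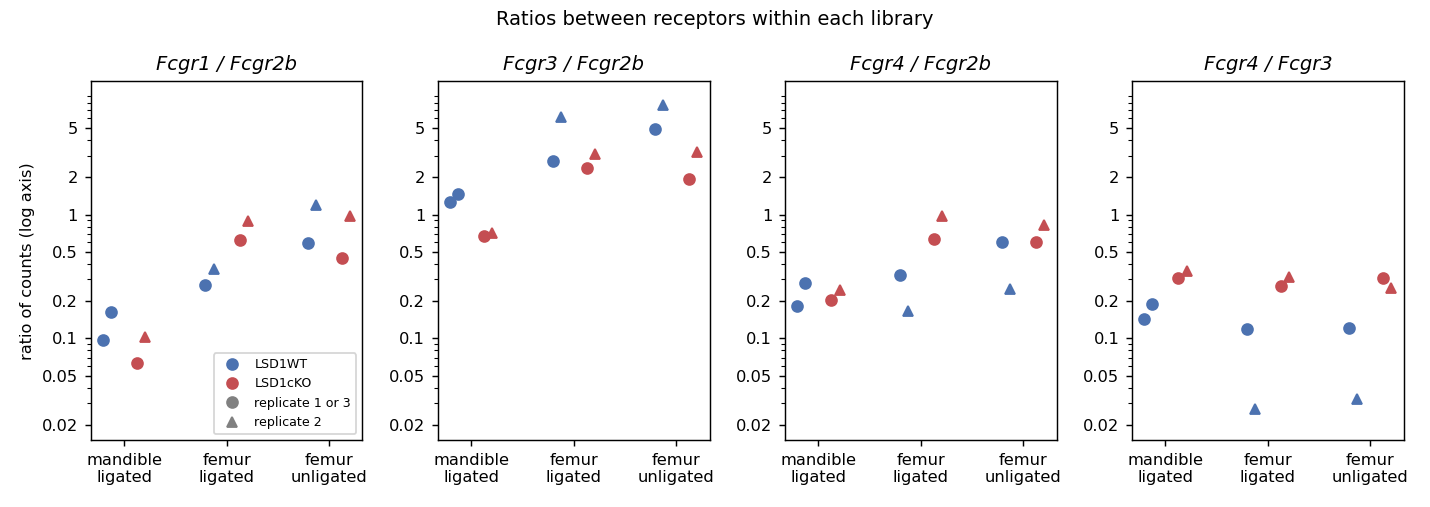
Ratios of counts between receptors within each library (log axes with 1 scale in all panels), by culture; blue is LSD1WT, red is LSD1cKO, circles are replicate 1 (or 3) and triangles replicate 2. Fcgr4 over Fcgr3 is 0.257 or more in every LSD1cKO library and 0.191 or less in every LSD1WT library, whereas the ratios to Fcgr2b overlap in at least 1 culture.

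The receptors varied together across the libraries. Correlations between pairs of other genes were not computed, so whether this is particular to the receptors cannot be said. Pearson correlations of log2 CPM between pairs of receptors were 0.845 to 0.957 over the 12 libraries, which share conditions and depth, and 0.837 to 0.989 over the 10 libraries without femur LSD1WT replicate 2. Over 9111 genes with a mean of at least 10 CPM, the profile most like Fcgr1 was that of Lgals9 (r = 0.995), followed by Trim21, a cytosolic antibody receptor, Evl, Mctp1 and Apobec1. The profile most like Fcgr2b was that of Ugt1a7c (r = 0.988), followed by Tlr2, Il16, Tmem37 and Sash3. Fcgr3 was most like Tmem140 (r = 0.995), Arhgap45, Ap3m2, Irf8 and Ly86, and Fcgr4 was most like Ifi203 (r = 0.996), Mndal, Ctss, Cd40 and Sp100. Ifi203, Mndal and Sp100 are interferon-inducible genes. The other genes named here were not screened for this, so it is not shown to be particular to Fcgr4. These 20 correlations were 0.967 to 0.997 over the 10 libraries without femur LSD1WT replicate 2.

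The genes through which the receptors signal were mostly not called. Of 35 genes for the FcR gamma chain, kinases, adaptors, effectors and inhibitors, 2 rose and 1 fell over the 3 cultures in edgeR's test, which called 3.53% of all genes, and the median log2 fold change was -0.05, against -0.06 over all genes tested. The risers were Blnk, an adaptor downstream of Syk (1.03, SE 0.14, adjusted p 0.00426), and Prkcd, a protein kinase C (0.50, SE 0.11, adjusted p 0.0352). Plcg1, a phospholipase C, fell (-0.72, SE 0.13, adjusted p 0.014). DESeq2 called 6 up and 2 down, where it called 8.09% of genes, and edgeR without the 2 femur LSD1WT replicate 2 libraries 10 up and 4 down, where it called 24.2%.

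Fcer1g, the shared gamma chain, was at 149.8 to 211 CPM in the mandible and at 257 to 843 CPM in the femur. Both mandible LSD1cKO values (180 and 211 CPM) were above both LSD1WT values (149.8 and 152 CPM), and in the femur the LSD1WT libraries lay on both sides of LSD1cKO. Its log2 fold change over the 3 cultures was -0.21 (SE 0.32, edgeR adjusted p 0.82), or 0.47 (SE 0.11, adjusted p 0.0134) without the 2 femur LSD1WT replicate 2 libraries.

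Fgr and Lyn are Src family kinases that phosphorylate the ITAM. Fgr was at 18.3 and 19.5 CPM in mandible LSD1WT against 103 and 136 CPM in LSD1cKO, and at 1.08 to 31.3 CPM in the 4 femur LSD1WT libraries against 92.5 to 143 CPM in the 4 femur LSD1cKO libraries. Every LSD1cKO library was thus above every LSD1WT library, as for 1.98% of genes, and unlike the receptors Fgr was lowest in the 2 femur LSD1WT replicate 2 libraries. Its log2 fold change was 2.89 (SE 0.72) with an edgeR adjusted p of 0.0571, and 2.36 (SE 0.18, adjusted p 1.65e-05) without those libraries. Lyn had a log2 fold change of -0.45 (SE 0.22, edgeR adjusted p 0.348), and -0.02 (SE 0.10) without them.

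Syk, the kinase that docks on the phosphorylated ITAM, had a log2 fold change of 0.08 (SE 0.18, edgeR adjusted p 0.893). Of the inhibitory phosphatases, SHIP1 (Inpp5d) had -0.34 (SE 0.23, adjusted p 0.536) and SHP-1 (Ptpn6) 0.20 (SE 0.14, adjusted p 0.548). None of the 3 passed the test, and without the 2 femur LSD1WT replicate 2 libraries their log2 fold changes were -0.05, 0.08 and 0.11 in that order.

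Of 14 genes for other Fc receptors, 6 had enough counts to be tested and 0 were called by edgeR's quasi-likelihood test or by DESeq2. Those tests called 3.53% and 8.09% of all genes. At an unadjusted p under 0.05 DESeq2 had 3, of which 1 was up and 2 were down. Of all 15425 genes, 1437 were up and 1364 down at that level. In edgeR 1 had an unadjusted p under 0.05, against 16.1% of genes. That 1 gene in edgeR was Fcgrt, the neonatal Fc receptor that carries IgG across cells and recycles it. It was at 12.5 and 13.7 CPM in mandible LSD1WT and 9.45 and 8.19 CPM in mandible LSD1cKO, and in the femur at 20.5 to 324 CPM in LSD1WT and 15.1 to 36.0 CPM in LSD1cKO. Its log2 fold change was -1.63 (SE 0.64, adjusted p 0.232), and -0.05 without the 2 femur LSD1WT replicate 2 libraries, a fit in which 2 of the 6 other Fc receptor genes rose, as did 14.4% of genes.

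Interferon-gamma induces Fcgr1 and Fcgr4 in macrophages, and a list of 17 of its target genes was measured. The paper reports higher interferon-beta-regulated genes in LSD1cKO preosteoclasts, and which interferon the list reflects was not tested. All 17 had a higher fitted mean in LSD1cKO and 13 passed edgeR's test over the 3 cultures, the median log2 fold change being 1.47, where 6316 of the 15425 genes tested had a higher mean and 462 passed as higher. With the 2 femur LSD1WT replicate 2 libraries left out 16 of 17 passed, where 14.4% of genes were called higher. The chemokines Cxcl9 (3.04) and Cxcl10 (3.00), the GTPases Gbp2 (2.38), Gbp3 (1.66), Gbp5 (1.70), Irgm1 (1.47) and Igtp (1.41), and Ido1 (2.85), which degrades tryptophan, were among them, as were Socs1 (1.17) and the antigen-processing genes Psmb8 (0.93), Psmb9 (0.86) and Tap1 (0.74). Their summed level was 260.1 to 262.7 CPM in mandible LSD1WT and 369.6 to 508.7 CPM in mandible LSD1cKO, 417.6 to 664.3 CPM in femur LSD1WT and 966.6 to 1733 CPM in femur LSD1cKO. As a description, its log2 correlated with log2 CPM of Fcgr1, Fcgr2b, Fcgr3 and Fcgr4 at 0.735, 0.622, 0.570 and 0.887 over the 12 libraries. Over the 10 libraries without femur LSD1WT replicate 2 the values were 0.976, 0.876, 0.962 and 0.971 in that order.

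Markers of other cells did not all follow the receptors. The 12 macrophage markers summed to 2129 and 2154 CPM in mandible LSD1WT, to 1739 and 2132 CPM in mandible LSD1cKO, where the receptors were higher, and, leaving aside femur LSD1WT replicate 2, to 3410 to 4864 CPM in the femur, with none at 0. By fitted mean 9 of 12 were higher in LSD1cKO in the mandible and 1 of 12 over the 3 cultures. In the latter 0 passed edgeR's test (1 at an unadjusted p under 0.05, 1 called by DESeq2, as lower). Of all genes edgeR called 3.53% and had 16.1% at an unadjusted p under 0.05, and DESeq2 called 8.09%. The 8 monocyte markers summed to 86.51 to 87.92 CPM in mandible LSD1WT, 159.4 to 255.4 CPM in mandible LSD1cKO, 113.4 to 1141 CPM in femur LSD1WT and 203.1 to 549.7 CPM in femur LSD1cKO, and Vcan (2.80) and Ms4a4c (2.21) rose over the 3 cultures. The 12 osteoclast markers summed to 26670 to 26790 CPM in mandible LSD1WT, 15110 to 15270 CPM in mandible LSD1cKO and 11900 to 29680 CPM in femur LSD1cKO, with none at 0 and 0 of 12 called by edgeR or DESeq2, also at an unadjusted p under 0.05. Without the 2 femur LSD1WT replicate 2 libraries 7 of 12 macrophage markers rose and 10 of 12 osteoclast markers fell in LSD1cKO, with median log2 fold changes of 0.93 and -0.84, and 3 of 8 monocyte markers rose, where 24.2% of genes were called. Their part in the receptors' differences was not tested.

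Markers of other immune cells, not all of which carry Fc gamma receptors, were summed in the same way. The 10 neutrophil markers summed to 139.8 to 165.7 CPM in the mandible, with LSD1WT (155.4 and 155.5 CPM) between the LSD1cKO libraries. In the ligated femur they summed to 115.9 and 279.8 CPM in LSD1WT and 306 and 279.4 CPM in LSD1cKO, and in the unligated femur to 89.53 to 213.6 CPM, with 1 marker at 0 in mandible LSD1WT replicate 3 and in ligated femur LSD1WT replicate 1. The 7 dendritic cell markers summed to 6.833 to 35.61 CPM, with Xcr1 at 0 in mandible LSD1WT and unligated femur LSD1cKO. The 9 B cell markers summed to 0.8073 to 12.67 CPM, with Igll1 at 0 in every library, the 10 T and NK cell markers to 0.3264 to 17.96 CPM, with Gzma at 0 in every library, and the 8 mast cell and basophil markers to 1.118 to 10.45 CPM, with Cma1 at 0 in every library. Of markers of cells that lack these receptors, 8 stromal genes summed to 59.33 and 59.15 CPM in mandible LSD1WT and to 10.78 and 5.377 CPM in mandible LSD1cKO, lower where the receptors were higher, with 5 of the 6 tested lower by fitted mean (median log2 fold change -2.01) and 0 called by edgeR, also at an unadjusted p under 0.05. They summed to 0.7868 to 35.15 CPM in femur LSD1WT and 1.447 to 9.265 CPM in femur LSD1cKO. The 6 erythroid genes summed to 0.03234 to 0.5152 CPM. Their part was not tested.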

How the data were processed

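Poly(A) RNA of 12 cultures, grouped by their GEO labels, was sequenced, and the authors deposited a table of gene counts, whole numbers per gene and library with no normalization. The submitters' processing notes name HISAT2 2.1.0, FastQC, featureCounts and edgeR, and the build GRCm39. How reads that match several genes were counted, and whether strand was used, was not given in the sources used here.

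From the counts, genes were filtered with filterByExpr (15425 of 57010 kept), scaled by TMM and tested with edgeR 4.0.16 (R 4.3.3, limma 3.58.1) by the quasi-likelihood test, with Benjamini-Hochberg adjustment over all genes tested and a threshold of 0.05. Genotype was tested with culture as a covariate over all 12 libraries, and within cultures, between sites, between ligature states and as interactions with a mean per condition, all 12 libraries sharing 1 estimate of spread. Ratios between receptors were tested by exact permutation of genotype within culture. DESeq2 1.42.0, RLE and upper-quartile scaling, other filters, a prior count of 0.5 for the ratios, each library left out, both femur LSD1WT replicate 2 libraries left out, the conflicting library taken as femur, blocks by replicate number or mouse, only the libraries compared, and the mandible LSD1WT libraries summed were alternatives, of which the sum, the crossed mouse pairing and the length of the longest coding transcript were chosen after the data were seen. Both femur LSD1WT replicate 2 libraries were picked to be left out by marker levels seen in these data. The fits were tested on simulated data.

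Total counts were 21375805 to 32526751 per library. CPM are counts divided by the TMM-scaled library total, and correlations used log2 CPM with a prior count of 2. Promoters came from RefSeq (GRCm38.p6) and transcripts from GENCODE vM21, matched by symbol and Ensembl ID (4 of 4), and no coordinate was carried between builds. The receptors and the gene lists were chosen with earlier results of these data known. Named genes are the 4 receptors, a set of partners (Fcer1g, Syk, Inpp5d, Ptpn6, Lyn, Fgr and Fcgrt), Kdm1a, every other listed gene that was called over the 3 cultures, and for each receptor the 5 genes of most similar profile among those with a mean of at least 10 CPM. Some genes that this rule names are not reported here.

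Same-numbered mandible and ligated femur libraries come from the same mouse for LSD1cKO and for LSD1WT replicate 1. Their deviations from the condition means had a correlation of -0.204 in LSD1cKO and 0.0711 in LSD1WT, and other same-numbered libraries come from different mice.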

Additional observations from a re-analysis of the deposited data

How the results depend on the processing

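Of the 124 values that answer a comparison under alternatives other than leaving out 1 library, 102 kept their direction and side of the threshold, and of the 168 with 1 library left out 149 did; for single genes these were 332 of 400 and 447 of 480. The number of receptors called over the 3 cultures (0) was 1 with DESeq2, 1 with no filter (2.39% of genes called) and 4 without both femur LSD1WT replicate 2 libraries. Without both it was also 4 in the mandible, 4 in the ligated femur, 2 in the unligated femur, 1 for the site in LSD1WT and 4 for the site in LSD1cKO, each 0 with all libraries. The site count was 4 in LSD1WT and 2 in LSD1cKO with DESeq2 and with no filter (3.02% and 1.21% of genes with no filter), 4 in each with the replicate block by mouse (7.71% and 36.8%), where LSD1WT has no residual spread of its own, and 4 in LSD1cKO with the crossed pairing of mice (44.6%). With only the libraries compared, 4 were called in the mandible and 4 for the site in LSD1cKO. Of the signalling genes and other Fc receptors together (41 of 49 tested), 3 were called, where 3.53% of all genes were. The number was 8 with DESeq2 (8.09% of all genes) and 5 with no filter (2.39%). It was 16 without both femur libraries (24.2%) and 1 with the conflicting library as femur (2.15%). With that library as femur the log2 ratio of Fcgr4 to Fcgr2b was 0.9166 (exact permutation, adjusted p 0.0167), past the threshold.

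Signs turned for these log2 fold changes without both femur LSD1WT replicate 2 libraries. Fcgr3 was 1.564 over the 3 cultures. In the ligated femur Fcgr2b was 2.575 and Fcgr3 2.578, and in the unligated femur Fcgr1 was 1.956 and Fcgr3 0.7736. The site interaction was -2.107, -0.04468, -1.035 and -1.347 (Fcgr1, Fcgr2b, Fcgr3, Fcgr4), and the ligature interaction 0.8408 for Fcgr2b and 1.804 for Fcgr3. Ligated against unligated LSD1WT was -0.2467, -1.103 and -1.128 (Fcgr2b, Fcgr3, Fcgr4). Elsewhere the ligature interaction of Fcgr4 was -0.001565 with upper-quartile scaling and -0.007326 with no filter, that of Fcgr3 was 0.03168 with the conflicting library as femur, and Fcgr1 in the unligated femur was 0.004586 with the replicate block. The block by replicate number, where different mice share a number, changed no other call. For the ratios to Fcgr2b it could not change one. Over its 32 arrangements the smallest two-sided p of that exact test is 0.0625. Those ratios therefore kept their side of the threshold by design. The cause of these changes was not tested beyond the libraries removed.

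With 1 library left out in turn, the receptors called ranged from 0 to 1 over the 3 cultures (1 without ligated femur LSD1WT replicate 2), 0 to 4 for the site in LSD1WT (4 without ligated femur LSD1WT replicate 1, where 23.2% of genes were called) and 0 to 1 for the site in LSD1cKO (1 without either of those, with 4.25% of genes called without replicate 1 and 4.12% without replicate 2). The number called among the 41 ranged from 1 (without mandible LSD1WT replicate 3 or either ligated femur LSD1cKO library) to 5 (without either ligated femur LSD1WT library or unligated femur LSD1WT replicate 2). Of all genes, 1.84% to 2% were called in the fits with 1 and 3.45% to 4.05% in the fits with 5. Log2 fold changes whose sign turned ranged, over the 3 cultures, from -1.166 to 0.5864 for Fcgr3, and in the ligated femur from -0.7695 to 3.919 for Fcgr1, -1.79 to 2.488 for Fcgr2b and -2.982 to 2.49 for Fcgr3. In the unligated femur they ranged from -1.497 to 1.955 for Fcgr1, -0.686 to 1.734 for Fcgr2b and -2.304 to 0.7727 for Fcgr3. Site interactions ranged from -2.048 to 2.671 for Fcgr1, -0.9779 to 4.525 for Fcgr3 and -1.286 to 2.066 for Fcgr4. Ligature interactions ranged from -1.775 to 4.609 for Fcgr1, -2.592 to 2.484 for Fcgr2b, -2.785 to 4.022 for Fcgr3 and -0.8281 to 2.545 for Fcgr4. Ligated against unligated LSD1WT ranged from -3.939 to 2.471, -1.915 to 3.186, -3.347 to 3.486 and -1.822 to 1.578 in the order Fcgr1, Fcgr2b, Fcgr3, Fcgr4. Log2 ratios to Fcgr2b ranged from -0.1305 to 0.2405 for Fcgr1, -1.156 to -0.7575 for Fcgr3 (past the threshold without mandible LSD1WT replicate 3 or ligated femur LSD1WT replicate 1) and 0.6407 to 1.056 for Fcgr4 (past it without mandible LSD1WT replicate 3). Where 1 library is left in a condition, it is assumed to vary like the others. With 2 libraries per condition, and 22 and 38 counts of Fcgr1 in mandible LSD1WT, small differences were not detectable at this depth.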
